A study of Mus musculus with 21 samples.

Results

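The 9 genes described here encode secreted neurotrophic factors and the receptors that read them: Bdnf, Ntf3, Gdnf, Manf and Cdnf on the side of the factors, and Ntrk2, Ngfr, Gfra1 and Ret on the side of the receptors. They were found by gene name, each once, among the 33829 genes listed for a pre-treatment experiment and the 55385 genes listed for a delayed treatment experiment. RNA-seq covered 21 midbrain samples from male C57BL/6 mice aged 6 weeks, in 7 groups of 3 mice, with nigral tissue taken out by hand after perfusion. In the pre-treatment experiment (9 mice), control mice received ddH2O for 10 days, MPTP mice received ddH2O for 5 days and then MPTP for 5 days, and irisin pre-treated mice received irisin for 5 days and then MPTP for 5 days. In the delayed treatment experiment (12 mice), control mice received ddH2O for 10 days, a group received ddH2O for 5 days and then irisin for 5 days, MPTP mice received MPTP for 5 days and then ddH2O for 5 days, and a last group received MPTP for 5 days and then irisin for 5 days. All agents were injected intraperitoneally once a day, with 30 mg/kg of MPTP or 200 μg/kg of irisin per dose. MPTP is a neurotoxin used to damage dopaminergic neurons, and irisin is the circulating fragment of the membrane protein FNDC5. No gene was altered in any group, and the tissue of each sample was a mixture of cells, so that fewer cells of a type and less RNA per cell cannot be told apart.

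Neurotrophic factors are secreted proteins that keep neurons alive and shape their branches and synapses. BDNF binds the receptor tyrosine kinase TrkB, the product of Ntrk2, and neurotrophin-3, the product of Ntf3, binds TrkC and, less strongly, TrkB, whereas all neurotrophins and their uncleaved forms can bind p75NTR, the product of Ngfr. GDNF binds the lipid-anchored co-receptor GFRα1, and the pair then engages the kinase RET, which midbrain dopaminergic neurons carry. MANF and CDNF form a separate family that resides in the endoplasmic reticulum (ER), where MANF works with the chaperone BiP, and both can be secreted.

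Counts were deposited for every mouse, with a library total of 66653781 to 75637604 counts in the pre-treatment and 48843585 to 77203445 counts in the delayed treatment experiment. Values below are in CPM, the usual unit of counts relative to library size, after scaling with TMM factors, unless they are named as FPKM, which also divides by gene length. The labelled tissue carried dopaminergic markers in every mouse: Th, the rate-limiting enzyme of dopamine synthesis, lay between 21.3 and 63.3 CPM, and Slc6a3, the dopamine transporter, between 15.3 and 105.8 CPM. Pitx3, a transcription factor of the same neurons, lay between 0 and 0.96 CPM. Markers of choroid plexus set some mice apart. Ttr, the transport protein made by that tissue, was at 1539 CPM in replicate 2 of the MPTP mice of the pre-treatment experiment and at 2.797 to 17.2 CPM in the other mice of that experiment, and it ranged from 24.2 to 1550 CPM in the delayed treatment experiment. Nothing in the labels says that mice shared a litter or a day. The p-values rest on the spread between mice within groups, taken over all groups of an experiment.

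Coordinates were those of the deposited tables, which for 6 of the 9 genes equal GENCODE vM21 on GRCm38. Bdnf spanned chr2:109674700-109727007 on the plus strand, Ntrk2 chr13:58806569-59133970 (plus), Ngfr chr11:95568818-95587735 (minus) and Ntf3 chr6:126101412-126166715 (minus). Gdnf spanned chr15:7810846-7837575 (plus), Gfra1 chr19:58235604-58455398 (minus) and Ret chr6:118151745-118197718 (minus). Cdnf spanned chr2:3513030-3526376 (plus) and Manf chr9:106838312-106891915 (minus). The 53.6 kb given for Manf overlap the protein-coding genes Dcaf1 and Rbm15b, and Bdnf, Ntrk2 and Gfra1 have annotated antisense partners. Use of strand in counting is not given in the sources used here, so reads of such partners cannot be told apart.

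Promoter sequences are shown for the members and for ER chaperone genes that are described beside Manf further on. RefSeq (GRCm38.p6) gave windows of 250 bases before to 50 bases after a transcript start for 7 of the 9 members, not for Ret and Manf. cAMP response elements, through which neuronal activity is known to act on Bdnf, were searched on both strands as the full form TGACGTCA and the shorter form TGACG. Forms with other letters were not searched, so a window without TGACGTCA can still hold such a form. The full form was not among these letters in any member. The shorter form, which lies within it, was in windows of 3 members, Bdnf, Gdnf and Cdnf, each time on the strand opposite to the gene. Distances are counted to the RefSeq start of each window. For Cdnf that start lies inside the gene span given above, and so does the match. The 30 bases around each match follow, 5′ to 3′ on the strand of the gene, with the match in capitals.
Bdnf, chr2:109692389-109692418, plus strand, 30 bases before an internal start: tatgacagctcaCGTCAaggcagcgtggag
Gdnf, chr15:7809986-7810015, plus strand, 45 bases before a RefSeq start that lies upstream of the span given above: cactggagggcaCGTCAcgcagtgagagct
Cdnf, chr2:3513025-3513054, plus strand, 23 bases before the start: ctggtgagattgCGTCActtgtttcctgcc
TGACG was in 20.8% of all 32851 promoter windows and in windows of 3 of the 7 members that had any. TGACGTCA was in 1.79% of all windows and in those of 0 of the 7 members. The shares are of single windows, whereas a member was counted when any of its windows held a match.

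The ER stress response element, through which the unfolded protein response is known to raise chaperone genes, was searched as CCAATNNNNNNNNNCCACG on both strands, and the core of the unfolded protein response element as TGACGTGG. Neither was in a window of a member, and they were in 0.119% and 0.676% of all windows. Of the 17 genes in a list of ER chaperones and their regulators, 15 had a window and 7 held the ER stress response element, which were Calr, Canx, Creld2, Dnajc3, Hsp90b1, Hspa5 and Pdia6. The list is made of genes known for this response, and the count, of genes with a match in any window, describes it. For 4 of them, the 30 bases around the element are given with the element in capitals. Hspa5 encodes the chaperone BiP, Pdia6 a disulfide isomerase, Dnajc3 a co-chaperone and Creld2 an ER stress protein.
Hspa5, chr2:34772020-34772049, plus strand, 46 bases before the start: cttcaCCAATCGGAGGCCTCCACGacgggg
Pdia6, chr12:17266486-17266515, plus strand, 79 bases before the start: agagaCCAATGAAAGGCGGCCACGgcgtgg
Dnajc3, chr14:118937822-118937851, plus strand, 86 bases before the start: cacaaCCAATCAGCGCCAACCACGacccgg
Creld2, chr15:88819515-88819544, plus strand, element on the opposite strand, 107 bases before the start: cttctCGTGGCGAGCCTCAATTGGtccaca
A match is a description of the letters and not a site at which binding was measured.

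Per gene length, the receptor genes Ntrk2 and Ret and the ER factor gene Manf were the most abundant members, and the mRNAs of the GDNF and neurotrophin-3 ligands the least. In the pre-treatment experiment, mean FPKM over the 9 mice was 32.6 ± 1.70 (SD) for Ntrk2, 11.9 ± 1.37 for Manf, 8.58 ± 1.71 for Ret, 4.63 ± 4.02 for Gfra1, 2.31 ± 0.427 for Bdnf, 1.17 ± 0.416 for Ngfr, 0.543 ± 0.106 for Cdnf, 0.348 ± 0.0820 for Ntf3 and 0.120 ± 0.0236 for Gdnf. The delayed treatment experiment gave the same order over its 12 mice, from 32.3 ± 1.62 FPKM for Ntrk2 to 0.101 ± 0.0655 FPKM for Gdnf. Only Ntrk2 lay apart from its neighbour in both experiments, whereas Gdnf lay apart from Ntf3 in the pre-treatment experiment alone and Ngfr from Cdnf in the delayed treatment experiment alone. All other neighbours in the order overlapped in the FPKM of single mice. The 3 lowest genes rest on few reads, with 6 to 53 counts per mouse for Gdnf, 8 to 84 for Ntf3 and 6 to 205 for Cdnf, against 31884 to 55144 for Ntrk2.

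The members also differed in how much they varied between mice. Ntrk2 was the steadiest, with a coefficient of variation of 4.78% over the 9 mice of the pre-treatment and 4.92% over the 12 mice of the delayed treatment experiment. Manf had 10.9% and 7.25%. Gfra1 had 86.8% and 69.1%. Ret was at 13.4 ± 2.03 FPKM (n = 12) in the delayed treatment experiment and Ngfr at 1.93 ± 0.461 FPKM (n = 12), both with a higher mean than in the pre-treatment experiment. Manf, at 15.2 ± 1.06 FPKM, and Gfra1, at 5.65 ± 3.91 FPKM, also had a higher mean there, and the other members a lower one. For Manf single mice did not overlap between the experiments, at 14.0 to 16.8 against 9.74 to 13.8 FPKM. The tables of the experiments were normalised separately, and no test was made between them.

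**Figure D1:**
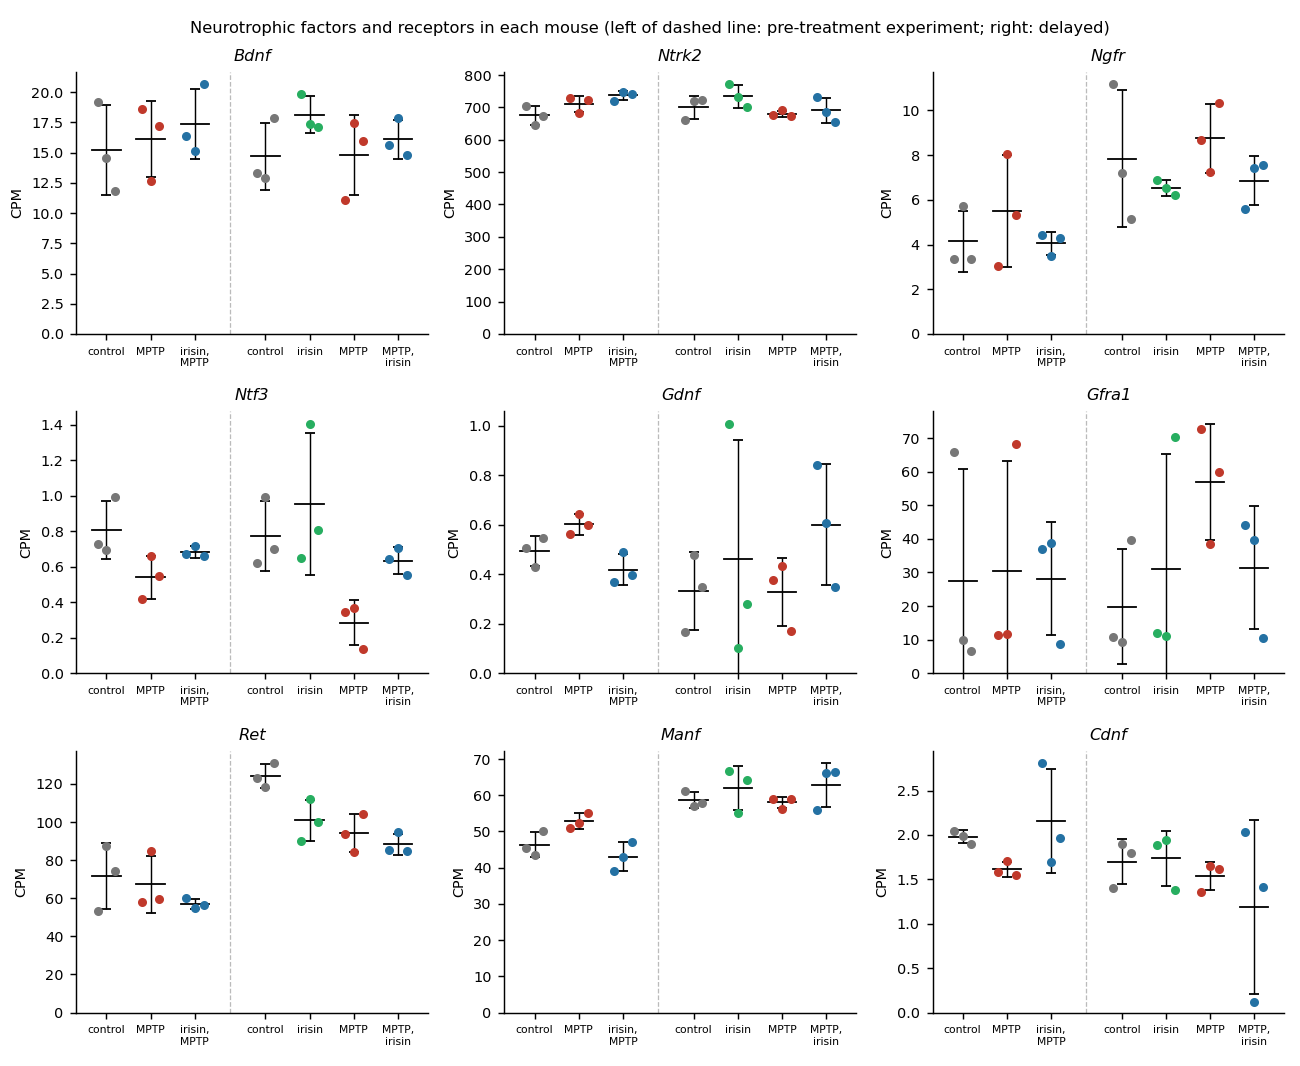
CPM of the 9 members in each of the 21 mice (points), with the mean (line) and SD (bar, cut at 0) of each group of 3; grey is control, red MPTP, blue irisin with MPTP and green irisin alone, and the dashed line parts the pre-treatment (left) from the delayed treatment experiment (right). Ntrk2 stayed between 647 and 771 CPM, whereas Gfra1 was spread from 6.51 to 72.7 CPM over the 21 mice.

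All 9 members passed the filter on low counts in both experiments, and none changed with an adjusted p under 0.05 in any of the 6 comparisons by the quasi-likelihood test of edgeR, where p-values were adjusted by Benjamini-Hochberg over all genes tested. Of all genes tested, the same rule called 0.0221% for MPTP against control and 0.0707% for irisin pre-treatment against MPTP in the pre-treatment experiment. For the delayed treatment it called 0.132% for MPTP against control, 0.109% for irisin alone against control, 0.00456% for irisin after MPTP against MPTP and 0.0411% for the interaction, which compares the effect of irisin with and without MPTP. Read against these shares, 0 of 9 is no result about the members. DESeq2 called 1 member, Ret, for MPTP against control in the delayed treatment experiment.

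At an unadjusted p under 0.05, there were 5 of 54 pairs of a member and a comparison. These were 0 of 9 members for MPTP against control in the pre-treatment experiment (6.03% of all genes) and 1, Manf, for irisin pre-treatment against MPTP (6.22%). With delayed treatment they were 2, Ret and Ntf3, for MPTP against control (8.33%), 1, Ret, for irisin alone against control (8.97%), 1, Ntf3, for irisin after MPTP against MPTP (3.9%), and 0 for the interaction (5.57%).

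Groups of mice did not overlap for 11 of the 45 pairs of a member and a comparison of 2 groups. Within the pre-treatment experiment, 4 members did not overlap between MPTP and control mice (11.6% of all genes) and 3 between irisin pre-treated and MPTP mice (14.2%). Under delayed treatment, 2 did not overlap between MPTP and control mice (16.2%), 1 between irisin alone and control mice (15.1%) and 1 between irisin after MPTP and MPTP mice (10.7%). An exact permutation test of 3 mice against 3 cannot give a two-sided p below 0.1, so that single genes were read only from the fit across all genes.

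**Figure D2:**
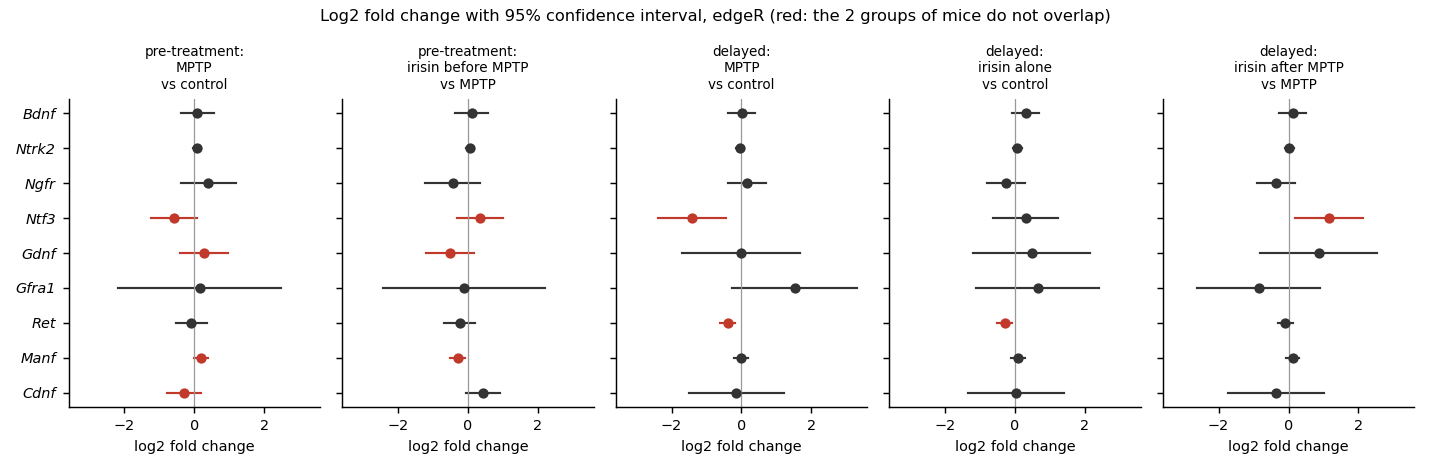
Log2 fold change (point) and 95% confidence interval (line) of each member in the 5 comparisons of 2 groups, 3 mice against 3, by edgeR; red marks members whose 2 groups of mice did not overlap. Intervals are narrow for Ntrk2, Manf and Ret and widest for Gfra1 and, in the delayed treatment experiment alone, for Gdnf and Cdnf.

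Bdnf, the main ligand of TrkB, did not separate any pair of groups. Among the 9 mice of the pre-treatment experiment it was at 19.2, 14.6 and 11.9 CPM in control mice, 18.6, 12.6 and 17.2 CPM in MPTP mice and 16.4, 15.1 and 20.6 CPM in irisin pre-treated mice. All 3 groups overlapped. The log2 fold change was 0.09 ± 0.21 (SE) for MPTP against control, with a 95% interval of -0.39 to 0.57, and 0.11 ± 0.21 for irisin pre-treatment against MPTP, with an interval of -0.38 to 0.59.

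Among the mice of the delayed treatment experiment, Bdnf was at 13.3, 12.9 and 17.9 CPM in control mice and 19.9, 17.4 and 17.2 CPM in mice given irisin alone. It was at 11.1, 17.4 and 15.998 CPM in MPTP mice and 15.6, 17.9 and 14.8 CPM in mice given irisin after MPTP. Control replicate 3 reached into the range of irisin alone, and the MPTP mice held the lowest value. Irisin alone gave the largest log2 fold change of Bdnf, 0.30 ± 0.18, with an interval of -0.08 to 0.69 and an adjusted p of 0.627. MPTP against control gave 0.01 ± 0.18 and irisin after MPTP against MPTP 0.12 ± 0.18. With a mouse left out in turn, the value for MPTP against control lay between -0.12 and 0.18 and changed sign for 4 of the 6 mice.

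Ntrk2, which encodes TrkB and a truncated receptor that astrocytes carry, had the tightest estimates of all members. Its CPM lay between 647 and 706 in control, 684 and 729 in MPTP and 721 and 748 in irisin pre-treated mice. The delayed treatment gave values between 660 and 723 in control, 700 and 771 with irisin alone, 675 and 692 in MPTP and 655 and 732 with irisin after MPTP. The groups overlapped in each of the comparisons made. Log2 fold changes ran from -0.04 ± 0.06 for MPTP against control in the delayed treatment experiment to 0.08 ± 0.05 for MPTP against control in the pre-treatment experiment, and the intervals of these comparisons ran from -0.16 to 0.19. Counts per gene do not part the full-length from the truncated receptor.

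Ngfr, the gene of p75NTR, varied widely within groups. Within the pre-treatment experiment it was at 3.36, 5.71 and 3.37 CPM in control mice, 3.05, 8.05 and 5.34 CPM in MPTP mice and 4.41, 3.47 and 4.30 CPM in irisin pre-treated mice. The highest value was that of MPTP replicate 2, the mouse with 1539 CPM of Ttr. MPTP against control gave a log2 fold change of 0.40 ± 0.35, and 0.02 without that mouse. Irisin pre-treatment against MPTP gave -0.43 ± 0.35, and -0.05 without it. The 12 mice with delayed treatment ranged from 5.12 to 11.2 CPM, control mice alone covered that whole range, and the smallest adjusted p was 0.790. The part of choroid plexus or other tissue in the level of Ngfr was not tested.

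Ntf3, the gene of neurotrophin-3, had the largest log2 fold changes without overlap among the members, at counts of 8 to 84 per mouse. In the delayed treatment experiment it was at 0.621, 0.996 and 0.697 CPM in control mice and 0.344, 0.370 and 0.138 CPM in MPTP mice. All 3 MPTP mice lay under all 3 control mice, with counts of 21, 29 and 8 against 30, 52 and 38. The log2 fold change was -1.43 ± 0.44, with an interval of -2.40 to -0.46 and an adjusted p of 0.398, which misses the threshold. Over the alternatives tried, including each mouse left out in turn, the adjusted p ranged from 0.181 to 0.665 and the sign held.

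With irisin after MPTP, Ntf3 was at 0.643, 0.706 and 0.553 CPM, above all 3 MPTP mice and inside or below the range of the control mice. Against MPTP this gave a log2 fold change of 1.15 ± 0.44 with an adjusted p of 0.9995. This comparison and the one before share the 3 MPTP mice. Irisin alone gave 0.647, 1.41 and 0.805 CPM, which overlapped the control mice, and the interaction was 0.84 ± 0.61 with an adjusted p of 0.945.

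Ntf3 in the pre-treatment experiment was at 0.731, 0.693 and 0.994 CPM in control mice, 0.417, 0.659 and 0.546 CPM in MPTP mice and 0.672, 0.719 and 0.659 CPM in irisin pre-treated mice. MPTP mice again lay under control mice, though by 1 count between the nearest, 46 against 47. The log2 fold changes were -0.57 ± 0.29 for MPTP against control (adjusted p = 0.838) and 0.34 ± 0.29 for irisin pre-treatment against MPTP (adjusted p = 0.976). Irisin pre-treated mice lay above MPTP mice, with the nearest mice at 0.6594 against 0.6591 CPM. Without control replicate 3 the value for MPTP was -0.40.

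Gdnf, the ligand of the GFRα1 and RET pair, was the scarcest member. In the pre-treatment experiment it was at 0.507, 0.428 and 0.547 CPM in control mice, 0.561, 0.645 and 0.599 CPM in MPTP mice and 0.370, 0.489 and 0.398 CPM in irisin pre-treated mice. MPTP mice lay above both other groups, by a log2 fold change of 0.28 ± 0.30 against control (adjusted p = 0.940), and irisin pre-treatment lay below MPTP by -0.52 ± 0.30 (adjusted p = 0.913). These values stand for 29 to 38, 39 to 45 and 27 to 36 counts per mouse, and both intervals include 0.

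Gdnf in the delayed treatment experiment spread over 0.1004 to 1.008 CPM among the 3 mice given irisin alone, which are 6 to 53 counts. The other groups fell inside that spread, at 0.166 to 0.479 CPM in control, 0.172 to 0.434 CPM in MPTP and 0.350 to 0.840 CPM with irisin after MPTP. No pair of groups was parted, and the standard errors of 0.76 to 0.77 on the log2 scale leave a change of 2-fold not detectable at this depth and spread.

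Gfra1, the co-receptor gene, fell on separate levels that cut across the groups. Of the 21 mice, 10 lay between 6.51 and 12.0 CPM and 11 between 37.1 and 72.7 CPM, with a 3.10-fold gap between the nearest mice of the 2 levels. Within the pre-treatment experiment it was at 66.0, 9.75 and 6.51 CPM in control mice, 11.3, 11.8 and 68.2 CPM in MPTP mice and 37.1, 38.6 and 8.82 CPM in irisin pre-treated mice. Each of these groups held mice of both levels.

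Gfra1 in the delayed treatment experiment was at 10.8, 9.17 and 39.7 CPM in control mice and 12.0, 11.1 and 70.4 CPM with irisin alone. It was at 72.7, 38.4 and 59.9 CPM in MPTP mice and 44.1, 39.8 and 10.5 CPM with irisin after MPTP. Here the MPTP mice were all on the upper level, and control replicate 3 lay above the lowest of them. MPTP against control gave the largest log2 fold change of any member, 1.52 ± 0.81, with an interval of -0.27 to 3.31 and an adjusted p of 0.667. It was 2.51 without control replicate 3, and between 1.17 and 1.81 under the other alternatives. Counts of 452 to 5120 per mouse leave little counting error in these values.

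Neighbouring genes did not show the same pattern closely. Over the 21 mice, the 14 other expressed genes within 1.5 Mb of Gfra1 had a Pearson's r with it between -0.32 and 0.44, on log2 CPM with the mean of each experiment taken off. Among genes with a mean of at least 10 CPM, 155 of 10619 in the pre-treatment and 149 of 10685 in the delayed treatment experiment had a gap of at least 2.5-fold with at least 2 mice on each side, and 58 had one in both, Gfra1 among them with gaps of 3.14-fold and 3.21-fold. These limits were chosen after the values of Gfra1 were seen.

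**Figure D3:**
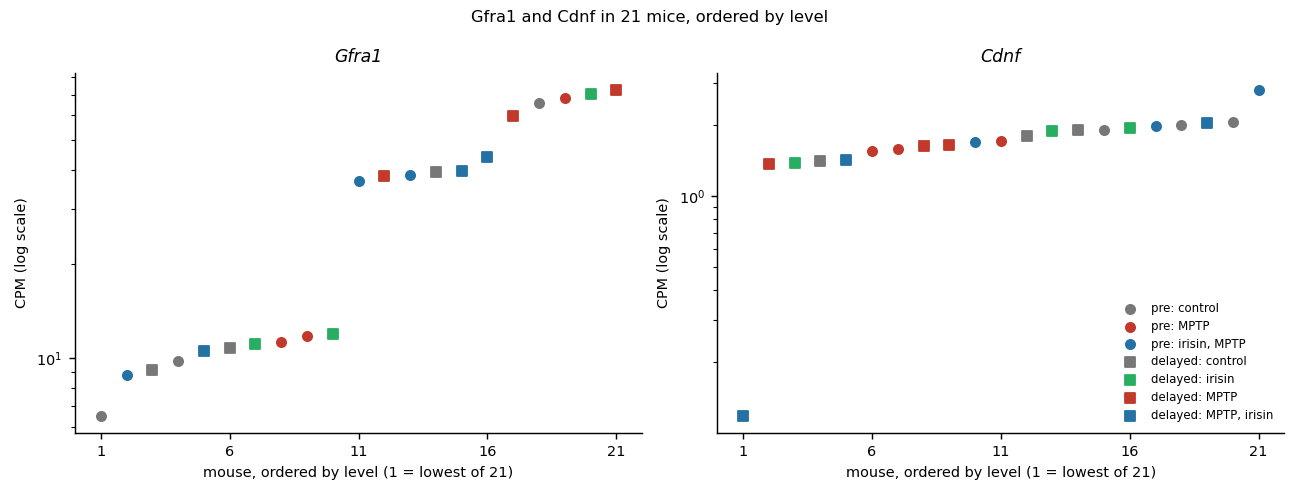
CPM of Gfra1 (left) and Cdnf (right) on a log scale in the 21 mice, ordered from lowest to highest; circles are the pre-treatment and squares the delayed treatment experiment, with colours by group. Gfra1 shows a gap between 12.0 and 37.1 CPM with both experiments on each side, and Cdnf shows a single mouse at 0.118 CPM.

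Ret, the kinase that transmits the GDNF signal in dopaminergic neurons, had the smallest adjusted p of any member. In the delayed treatment experiment it was at 123, 118 and 131 CPM in control mice and 93.9, 84.3 and 104 CPM in MPTP mice. The groups did not overlap. The log2 fold change was -0.40 ± 0.10, with an interval of -0.61 to -0.19 and an adjusted p of 0.265. DESeq2 gave -0.39 with an adjusted p of 0.0371, and over all alternatives the adjusted p ranged from 0.0371 to 0.589. Ranked by p, Ret was 127th of the 21922 genes tested.

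Mice given irisin alone had Ret at 90.3, 112 and 100.3 CPM, below all control mice, with a log2 fold change of -0.30 ± 0.10 and an adjusted p of 0.452. Irisin after MPTP gave 85.5, 94.9 and 84.6 CPM, which overlapped the MPTP mice at -0.09 ± 0.10, with an interval of -0.30 to 0.12. The interaction was 0.21 ± 0.13 with an adjusted p of 0.938. The comparisons of MPTP and of irisin alone share the 3 control mice.

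Ret in the pre-treatment experiment was at 53.2, 87.5 and 74.5 CPM in control mice, 58.2, 84.6 and 59.4 CPM in MPTP mice and 60.1, 55.1 and 56.2 CPM in irisin pre-treated mice. All groups overlapped. The log2 fold changes were -0.09 ± 0.19 for MPTP against control, which turned to 0.08 without control replicate 2 and was -0.29 without MPTP replicate 2, and -0.24 ± 0.19 for irisin pre-treatment against MPTP.

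Markers of dopaminergic neurons had lower values in the delayed MPTP mice, without a call at the adjusted threshold. Summed over the 9 other markers of the list, control mice held 677 to 714 CPM, mice given irisin alone 634 to 642 CPM, MPTP mice 463 to 588 CPM and mice given irisin after MPTP 475 to 546 CPM. Aldh1a1, an aldehyde dehydrogenase of these neurons, made up 379 to 400.3 CPM of the sum in control mice. For MPTP against control, 4 of the 9, all lower, had an unadjusted p under 0.05 (8.33% of all genes). Without overlap there were 5 (16.2%), and the median log2 fold change was -0.41 against -0.0013 over all genes. None passed the adjusted threshold. Th had -0.68 ± 0.14 (adjusted p = 0.188) and Slc6a3 -1.08 ± 0.37 (adjusted p = 0.458). With irisin alone the median was -0.17, and Nr4a2, a transcription factor of these neurons, had 0.26. Sums in the pre-treatment experiment were 527 to 824 CPM in control, 542 to 863 CPM in MPTP and 539 to 632 CPM in irisin pre-treated mice. For irisin pre-treatment against MPTP, the median of the 9 markers was -0.55 and all 9 were negative. Of these, 2, Slc6a3 and Nr4a2, were lower without overlap (14.2% of all genes) and at an unadjusted p under 0.05 (6.22%). Slc6a3 was at 25.7 to 37.2 CPM against 51.3 to 65.5 CPM, with -0.89 ± 0.23 (adjusted p = 0.494). Ret, at -0.24 ± 0.19, overlapped in that comparison. Across mice, the r of Ret with these markers ran from 0.10 to 0.84 with a median of 0.66 (9 genes, 21 mice, experiment means taken off), and over the 12 mice with delayed treatment it was 0.26 for Nr4a2 and 0.34 for Pitx3. The part of the number of dopaminergic neurons in the level of Ret was not tested.

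Summed markers of astrocytes, microglia and oligodendrocytes overlapped between control and MPTP mice of the delayed treatment experiment. They ranged from 1125 to 1344 CPM in control and 1140 to 1264 CPM in MPTP mice for astrocytes, from 80.6 to 87.9 CPM and 82.2 to 113 CPM for microglia, and from 5789 to 6521 CPM and 5866 to 7087 CPM for oligodendrocytes and their precursors. Those of neurons as a whole lay between 4150 and 4283 CPM in control and between 3834 and 3981 CPM in MPTP mice, without overlap. Snap25 made up 2839 to 3046 CPM of this sum in control and 2624 to 2766 CPM in MPTP mice. It was the only marker of the 4 without overlap, and 1, Syt1, had a positive log2 fold change, 0.02. All 3 markers of microglia had positive log2 fold changes. Of these 1, Aif1, was higher without overlap, at 2.78 to 3.36 CPM in MPTP and 2.41 to 2.73 CPM in control mice. Csf1r made up 72.8 to 81.3 CPM of the microglial sum in control mice, and the highest sum in MPTP mice held Cx3cr1 at 33.9 CPM. Summed markers of choroid plexus spread from 225 to 1466 CPM in control and from 32.8 to 1498 CPM in MPTP mice. Other lists had medians away from 0 too, with 0 calls at the adjusted threshold. Of all genes tested, 16.2% did not overlap between these groups. The 4 markers of pericytes and meningeal fibroblasts all had positive values, with a median log2 fold change of 0.38 and 2 without overlap, and the 4 of cortical and hippocampal glutamatergic neurons all had positive values, with a median of 0.42 and 1 without overlap. The 3 of serotonergic neurons all had negative values, with a median of -0.44 and 0 without overlap, and the dopaminergic sum holds Ddc and Slc18a2, which serotonergic neurons also express. The 4 markers of cholinergic motor neurons had a median of -0.21, with 1 positive value and 1, Slc18a3, lower without overlap. Their sum lay between 79.7 and 88.4 CPM in control and between 66.2 and 83.5 CPM in MPTP mice. With irisin alone it lay between 40.5 and 74.0 CPM, without overlap with control mice. The part of these cell types in the level of Ret was not tested.

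Manf, which encodes an ER-resident protein that is released under ER stress, had its highest values within the pre-treatment experiment in the MPTP mice. It was at 45.4, 43.5 and 50.2 CPM in control mice, 51.0, 52.4 and 55.2 CPM in MPTP mice and 39.2, 42.8 and 47.1 CPM in irisin pre-treated mice. The MPTP mice did not overlap with either other group. The log2 fold change for MPTP against control was 0.19 ± 0.09, with an interval of -0.01 to 0.39 and an adjusted p of 0.828. For irisin pre-treatment against MPTP it was -0.30 ± 0.09, with an interval of -0.50 to -0.09 and an adjusted p of 0.577. Over the alternatives the second ran from -0.37 to -0.23, with adjusted p from 0.194 to 0.953, and it was -0.31 without MPTP replicate 2. Both comparisons share the 3 MPTP mice.

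Manf in the delayed treatment experiment was at 61.2, 57.2 and 57.8 CPM in control mice, 66.8, 55.2 and 64.1 CPM with irisin alone, 59.1, 56.3 and 58.9 CPM in MPTP mice and 55.9, 66.2 and 66.5 CPM with irisin after MPTP. All pairs of groups overlapped. MPTP against control gave -0.01 ± 0.09, with an interval of -0.21 to 0.18, and irisin after MPTP against MPTP 0.11 ± 0.09, with an interval of -0.08 to 0.31.

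The ER chaperone list, of which Manf is a known partner in the unfolded protein response, had values of the same signs in the pre-treatment experiment. All 17 genes had a positive log2 fold change for MPTP against control, 8 without overlap (11.6% of all genes) and 6 with an unadjusted p under 0.05 (6.03%), and the median was 0.18 against -0.0018 over all genes. All 17 had a negative one for irisin pre-treatment against MPTP, 8 without overlap (14.2%) and 7 with an unadjusted p under 0.05 (6.22%), and the median was -0.17 against 0.0031. None passed the adjusted threshold in either comparison, and both share the 3 MPTP mice. With a mouse left out, the count for MPTP against control ranged from 3 to 6, at 3 without control replicate 3, MPTP replicate 2 or MPTP replicate 3, and that for irisin pre-treatment from 4 to 9, at 4 without MPTP replicate 3. The list also holds regulators such as Xbp1 and Atf6, and Nptn, a cell adhesion gene.

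Pdia4, which encodes an ER disulfide isomerase, came closest to a call in this list. It was at 35.1, 31.9 and 33.3 CPM in control mice, 40.8, 43.1 and 45.9 CPM in MPTP mice and 28.5, 31.4 and 30.5 CPM in irisin pre-treated mice, with each group apart from the MPTP mice. The log2 fold changes were 0.37 ± 0.08 (adjusted p = 0.570) and -0.52 ± 0.08 (adjusted p = 0.0721). Hspa5, whose product BiP binds MANF, was at 243, 224 and 236 CPM in control mice, 299, 297 and 333 CPM in MPTP mice and 171, 224 and 266 CPM in irisin pre-treated mice, with 0.40 ± 0.14 (adjusted p = 0.818) and -0.49 ± 0.14 (adjusted p = 0.548). The largest and smallest log2 fold changes of the list were 0.57 for Sdf2l1 and 0.01 for Dnajb11 with MPTP, and -0.06 for Calr and -0.70 for Xbp1 with irisin pre-treatment.

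The same list showed little in the delayed treatment experiment. For MPTP against control its median log2 fold change was 0.0014. Of the 17 genes, 0 had an unadjusted p under 0.05 (8.33% of all genes) and 1 did not overlap (16.2%). Irisin alone gave a median of 0.05 and irisin after MPTP 0.02, with 0 at an unadjusted p under 0.05 in both (8.97% and 3.9%). Hspa5 held the highest value with irisin alone, 0.33, and Ddit3 the lowest with MPTP, -0.17.

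**Figure D4:**
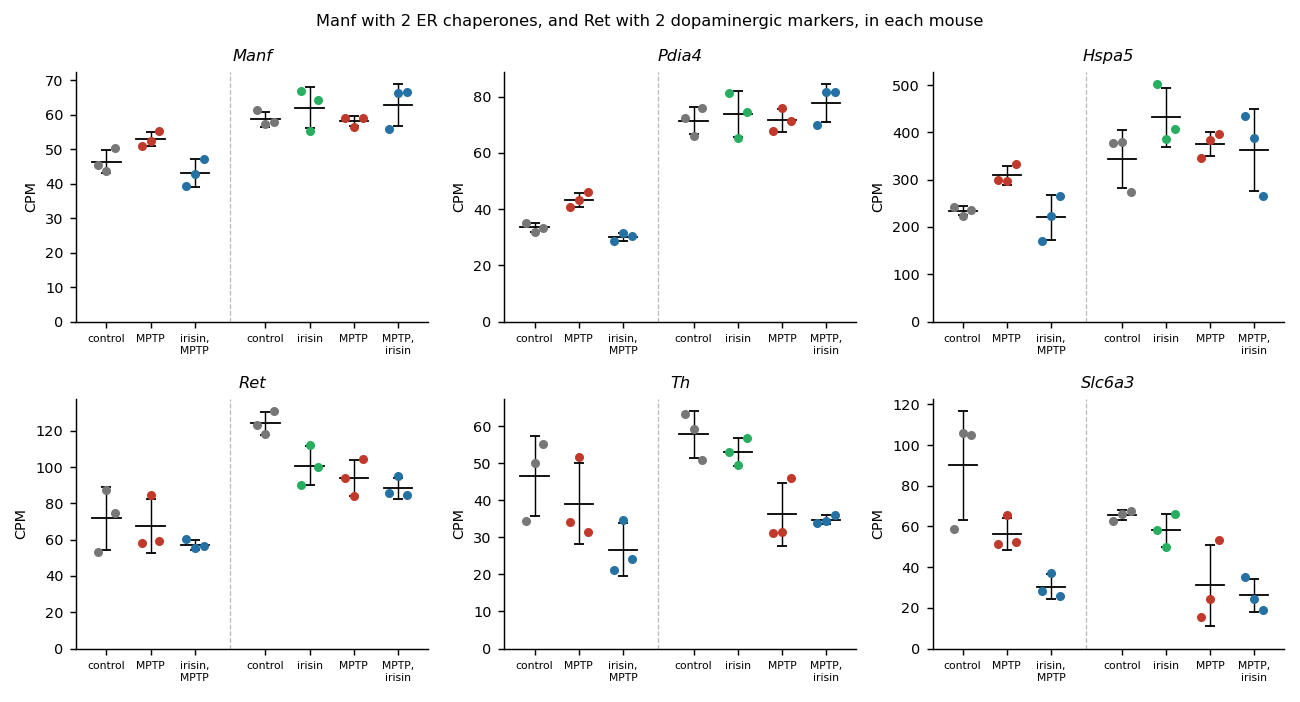
CPM of Manf with the ER chaperone genes Pdia4 and Hspa5 (top) and of Ret with the dopaminergic markers Th and Slc6a3 (bottom) in each mouse (points), with the mean (line) and SD (bar) of each group of 3; colours and the dashed line are as in the plot of all members. Left of the dashed line the MPTP mice lie above the other 2 groups for all 3 genes of the top row, and in the delayed treatment experiment control mice lie above MPTP mice for all 3 genes of the bottom row.

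Cdnf, the paralogue of Manf, did not follow it. In the pre-treatment experiment it was at 2.04, 1.99 and 1.90 CPM in control mice, 1.58, 1.70 and 1.54 CPM in MPTP mice and 2.81, 1.70 and 1.96 CPM in irisin pre-treated mice. MPTP mice lay under control mice, with 110 to 119 against 132 to 137 counts. The log2 fold change was -0.30 ± 0.21 with an adjusted p of 0.895, and irisin pre-treatment against MPTP gave 0.42 ± 0.21 with overlap and an adjusted p of 0.871.

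Cdnf in the delayed treatment experiment was at 1.41, 1.90 and 1.80 CPM in control mice, 1.88, 1.94 and 1.38 CPM with irisin alone, 1.36, 1.65 and 1.62 CPM in MPTP mice and 2.04, 0.118 and 1.42 CPM with irisin after MPTP. The value of 0.118 CPM, in replicate 2, stands for 6 counts, against 68 to 205 in the other 20 mice. It lay 11.5-fold under the next mouse. The log2 fold change for irisin after MPTP against MPTP was -0.37 ± 0.63 with that mouse and 0.17 without it. Of the 16083 genes with a mean of at least 1 CPM in this experiment, 26 had a lowest mouse at least 10-fold under the next and above 0, and 3 of these had this mouse as the lowest.

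Relatives of the members, listed by pathway, also gave 0 calls at the adjusted threshold with 1 exception, the immediate early gene Fos. Of all genes in the pre-treatment experiment, 6.03% had an unadjusted p under 0.05 with MPTP and 6.22% with irisin pre-treatment. In the delayed treatment experiment the shares were 8.33% with MPTP, 8.97% with irisin alone and 3.9% with irisin after MPTP. Counts in this and the next paragraph are to be read beside these shares. Of 14 other genes of the neurotrophin family measured in the pre-treatment experiment, 1 was higher at an unadjusted p under 0.05 with MPTP and 1 lower with irisin pre-treatment. Of 13 in the delayed treatment experiment, 1 was higher and 1 lower with MPTP, 2 were lower with irisin alone and 1 lower with irisin after MPTP. Their log2 fold changes ran from -0.25 for Lingo1, which encodes a partner of p75NTR, to 0.21 for Sorcs3 with MPTP in the delayed treatment experiment.

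Of 8 other genes of the GDNF family, which include the ligands neurturin, artemin and persephin and their co-receptors, 0 had an unadjusted p under 0.05 in the pre-treatment experiment, and 1, lower with irisin alone, in the 3 comparisons of 2 groups in the delayed treatment experiment. The extremes were 1.12 for Nrtn and -0.59 for Pspn with MPTP in the pre-treatment experiment, and 0.08 for Sorl1, a sorting receptor, and -0.70 for Artn with MPTP in the delayed treatment experiment. The convertases and proteases that cut proBDNF gave 0 of 11 in both comparisons of the pre-treatment experiment and 1 of 12, lower, for MPTP in the delayed treatment experiment. Of 21 adaptors of TrkB and RET, 1 was higher with MPTP and 2 lower with irisin pre-treatment in the pre-treatment experiment, and 2 were higher and 2 lower with MPTP in the delayed treatment experiment. Of 20 other growth factors and cytokines, 0 had an unadjusted p under 0.05 for MPTP and 1, lower, for irisin pre-treatment, and 2 higher and 2 lower for MPTP in the delayed treatment experiment. Fgf20, a growth factor gene of dopaminergic neurons, had the lowest fitted value there, -3.05, at 0 to 0.138 CPM in MPTP mice and 0.275 to 0.517 CPM in control mice.

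The list of activity-regulated genes and regulators of Bdnf held the call. Fos was at 29.3, 31.5 and 28.4 CPM in MPTP mice and 8.198, 6.22 and 9.89 CPM in irisin pre-treated mice of the pre-treatment experiment, and at 34.4, 21.3 and 33.5 CPM in control mice. It fell by 1.88 on the log2 scale, with an SE of 0.22 and an adjusted p of 0.0210. With any of the 6 mice left out, the log2 fold change stayed between -2.05 and -1.72 and the adjusted p rose to between 0.0514 and 0.122, so that the call was lost each time. The replicate number as a block also lost it (adjusted p = 0.0629). The other 6 alternatives kept it, with adjusted p from 1.2e-13 with DESeq2 to 0.0347 with limma on log2(FPKM + 1). Of the 16 genes of the list, 6 were lower and 0 higher at an unadjusted p under 0.05 (6.22% of all genes). Without overlap, 8 were lower and 1 higher (14.2%), and the median was -0.19 against 0.0031 over all genes. Vgf had the highest log2 fold change, 0.24. Bdnf itself, with 0.11 ± 0.21, did not go with Fos in this comparison. For MPTP in the delayed treatment experiment, 2 genes of the list were higher and 3 lower at an unadjusted p under 0.05 (8.33%). Without control replicate 3 this count was 3 in all. Log2 fold changes of the list ran from -1.02 for Junb to 0.52 for Creb1. The groups overlapped for Creb1, at 5.05 to 48.5 CPM in control and 22.2 to 49.5 CPM in MPTP mice.

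Genes whose pattern over the 21 mice was most like that of a member are named as a description, with Pearson's r on log2 CPM after the mean of each experiment was taken off, among 13237 genes with a mean of at least 1 FPKM in both experiments. Each mouse had its own library and its own depth. For Manf these were Pdia4 (r = 0.84), Pdia6 (0.81) and Depp1 (0.80), and Pdia4 kept 0.88 over the 9 and 0.79 over the 12 mice. For Ret they were Aldh1a1, a dopaminergic marker (0.84), Fabp3 (0.81) and Fez2 (0.81). For Ntrk2 they were Gprasp1 (0.88), Fnbp1l (0.87) and Ahi1 (0.84), and for Bdnf Gm5124 (0.80), Kifap3 (0.80) and Tagap (0.78). Ngfr had Ifi27 (0.85), Sdcbp (0.85) and Whrn (0.83), and Gfra1 had Dtx3l (0.74), Ephb1 (0.70) and Ctnnd2 (0.68).

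The scarce members gave less. Ntf3 had Zranb1 (0.74), Mtif2 (0.73) and Gm11266 (0.72), and Gdnf had Nudt21 (0.79), Zfp563 (0.70) and Kpna3 (0.70), of which Zfp563 was at -0.02 and Kpna3 at 0.03 over the 9 mice of the pre-treatment experiment, as Mtif2 was at -0.06 with Ntf3. The likeness of Cdnf to Exoc2 (0.92), Usp27x (0.90) and Sft2d2 (0.86) rested on the 1 mouse with 6 counts, and without it r was 0.38, 0.32 and 0.07.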

How the data were processed

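RNA-seq of 21 mouse midbrain samples was analysed. The authors deposited, for each experiment, a raw read count per gene and mouse, made with featureCounts, and FPKM values per gene, which divide the count by depth and gene length. The labels name HISAT, StringTie, edgeR and the build mm9, while positions of genes in the tables match GRCm38. An FPKM of 0 is written as 0 in the pre-treatment and as 0.0001 in the delayed treatment table. The members and gene lists were chosen with earlier results of these data known.

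The test on the counts was that of edgeR 4.0.16 under R 4.3.3 (filterByExpr, TMM, quasi-likelihood, two-sided), with all groups of an experiment in one fit, 22641 and 21922 genes tested, and Benjamini-Hochberg adjustment at 0.05. The interaction used the 4 groups of the delayed treatment experiment. The SE is the log2 fold change divided by the square root of F. Steps were tested on simulated data. Alternatives were median ratio size factors, all genes with any count, DESeq2 1.42.0, the 2 compared groups alone, the replicate number as a block, limma 3.58.1 on log2(FPKM + 1) and log2(FPKM + 0.1), which understates changes of low genes, and each mouse left out. Chosen after seeing the data were the same alternatives for Fos, list counts with a mouse left out, and the limits on gaps. Text named all members, list genes past the threshold, the extremes of a list, dopaminergic markers and the 3 genes most like each member. Some list extremes are not reported here. Likeness was computed in Python 3.11.15 with numpy 2.4.6 and pandas 2.3.3. Depth limits Gdnf, Ntf3 and Cdnf most.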

Additional observations from a re-analysis of the deposited data

Results flagged for a closer look

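Fos went in opposite directions with irisin in the 2 experiments, without overlap between the groups of mice in either. Irisin before MPTP gave a log2 fold change of -1.88 against MPTP (6.22 to 9.89 against 28.4 to 31.5 CPM), and irisin after MPTP gave 0.49 (36.5 to 40.0 against 23.4 to 30.3 CPM), a difference of -2.37 on the log2 scale. The first passed the adjusted threshold by edgeR and the second did not (adjusted p = 0.9995). The difference between the experiments was not tested, since their tables were normalised separately. No member met this condition.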

How the results depend on the processing

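Depth limits Gdnf, Ntf3 and Cdnf, and the spread between mice limits Gfra1. Of 367 fold changes of members under alternatives that kept all mice, 360 kept their sign and their side of the threshold. DESeq2 called 1 member, Ret, for MPTP against control in the delayed treatment experiment (log2 fold change -0.39, adjusted p = 0.0371), where edgeR called 0. The cause was not tested. Signs turned for 6 values near 0. For irisin pre-treatment against MPTP, Gfra1 was 0.10 with limma on log2(FPKM + 1) and 0.15 on log2(FPKM + 0.1). For MPTP against control in the delayed treatment experiment, Manf was 0.0092 and 0.0098 in these fits, and Gdnf was 0.00057 with all genes that had any count and 0.0025 with limma on log2(FPKM + 0.1). The causes were not tested.

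The replicate numbers did not pair the mice: deviations of mice with the same number correlated at -0.103 to 0.16 in the pre-treatment and -0.084 to 0.043 in the delayed treatment experiment. With the replicate block, 0 members were called in each comparison, Manf was -0.30 for irisin pre-treatment and Ntf3 -1.47 for MPTP in the delayed treatment experiment, and Fos was -1.91.

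With a mouse left out, 0 members were called, and signs turned in 38 of 378 values, in 21 of 54 results. In the pre-treatment experiment, MPTP against control ranged from -0.0658 to 0.28 for Bdnf, -1.25 to 1.90 for Gfra1 and -0.29 to 0.077 for Ret, and irisin pre-treatment from -0.047 to 0.22 for Bdnf and -0.51 to 1.29 for Gfra1. In the delayed treatment experiment, MPTP against control ranged from -0.12 to 0.18 for Bdnf, -0.33 to 0.34 for Gdnf, -0.071 to 0.50 for Ngfr and -0.034 to 0.013 for Manf. Irisin alone ranged from -0.80 to 0.95 for Gdnf, -0.79 to 1.65 for Gfra1, -0.088 to 0.53 for Ntf3, -0.49 to 0.080 for Ngfr and -0.091 to 0.17 for Cdnf. Irisin after MPTP ranged from -0.052 to 0.25 for Bdnf, -0.023 to 0.062 for Ntrk2 and -0.998 to 0.17 for Cdnf, and the interaction from -0.082 to 1.66 for Gdnf, -0.43 to 0.14 for Ngfr, -0.042 to 0.11 for Manf and -1.03 to 0.14 for Cdnf.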
